A study of Mus musculus with 2 samples.

Results

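The G1 cyclins Ccnd1, Ccnd2, Ccnd3, Ccne1 and Ccne2, the kinases Cdk4, Cdk6 and Cdk2 and the transcription factors E2f1 and E2f2 are described here in cultured mouse neural retinal progenitor cells (mNRPCs) and in mouse retina tissue. The 10 genes were chosen with earlier results of these data known. They were taken by name from the 31253 genes of an RNA sequencing table, by a rule that itself uses no measured level. Their summed level was 974.7 FPKM in mNRPCs (0.158% of all FPKM of that library) and 75.2 FPKM in retina (0.0174%). FPKM counts sequenced fragments per transcript length and per fragments mapped in the library, so levels can be set side by side between genes.

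The mNRPC library came from C57BL/6 cells at passage 24. In the study's methods, mNRPCs are dissociated cells of adult neural retina grown on Matrigel in a defined N2/B27 medium. That medium holds the mitogen bFGF (basic fibroblast growth factor) together with CHIR99021, which inhibits the kinase GSK3. The other library came from C57BL/6 retina tissue that was not cultured. Age, sex and number of animals behind each library are not given in the labels, and each group held 1 library, so culture, passage, cell type and animal cannot be told apart and no difference could be tested. The comparison places the genes that carry a cell from G1 into S phase in a propagated culture beside the tissue from which such cultures are derived.

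Cells decide in G1 whether to divide again. D-type cyclins, made when mitogens are present, bind CDK4 or CDK6 and begin to phosphorylate the retinoblastoma protein, and cyclin E with CDK2 completes this step. E2F factors are thereby released and switch on genes for DNA synthesis as well as those of cyclin E and E2F1. In the developing retina cyclin D1 is the main D-type cyclin of dividing progenitors, and the neurons of the mature tissue have left the cycle.

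Promoter windows were read first, because E2F sites are a route by which this circuit feeds back on its own genes. The RefSeq promoter table for GRCm38.p6 held 9 windows for 7 of the 10 members, each running from 250 bases before to 50 bases after a start site. The motifs TTTCGCGC, TTTGGCGC and GCGGGAA were searched on both strands. Ccnd1, Ccnd2 and Ccne2 had no window. No match was found for Ccnd3, Cdk4, Cdk6, Ccne1 and E2f1, nor in 1 window of E2f2. Of the 9 windows 2 held a match, 1 of Cdk2 and 1 of E2f2. They are printed because they are the windows of members in which an E2F motif was found, 5′ to 3′ on the strand of the gene, with the motif in capitals.
Cdk2, chr10:128705002-128705301, minus strand: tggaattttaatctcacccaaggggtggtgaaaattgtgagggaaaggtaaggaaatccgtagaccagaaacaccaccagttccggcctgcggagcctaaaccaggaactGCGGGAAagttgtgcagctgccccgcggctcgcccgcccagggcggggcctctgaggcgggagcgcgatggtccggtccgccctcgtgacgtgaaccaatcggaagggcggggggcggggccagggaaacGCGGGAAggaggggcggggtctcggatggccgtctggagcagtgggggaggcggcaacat
E2f2, chr4:136172024-136172323, plus strand: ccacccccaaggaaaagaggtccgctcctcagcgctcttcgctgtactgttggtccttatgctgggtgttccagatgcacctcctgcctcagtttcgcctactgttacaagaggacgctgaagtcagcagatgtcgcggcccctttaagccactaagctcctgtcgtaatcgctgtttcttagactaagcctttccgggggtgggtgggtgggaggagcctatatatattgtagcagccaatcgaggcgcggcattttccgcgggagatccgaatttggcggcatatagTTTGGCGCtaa

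The GCGGGAA matches of Cdk2 begin 140 and 10 bases before the start site. The TTTGGCGC match of E2f2 begins 39 bases after it, and the matches do not overlap. Over all 32851 windows, 4.6% held GCGGGAA, 0.514% TTTGGCGC, 0.323% TTTCGCGC and 5.33% at least 1 of the 3. Among the windows of 19 listed G1/S targets of E2F, 10 of 17 held a match (58.8%). The GC content of the members' windows ran from 54.7% to 77.3%, beside a median of 52.7% over all windows. A match describes letters in a window only, and a window without 1 says nothing of E2F binding.

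Of the 10 members 7 were at least 2-fold higher in mNRPCs and 0 were at least 2-fold lower. Beside this, 13780 genes reached 1 FPKM in a library, of which 24.5% were higher to that extent and 30.0% lower. Over all 31253 genes the shares were 10.8% and 13.2%. Folds were taken on a log2 scale after 1 FPKM had been added to both levels, so the difference of low genes is understated. The median of this log2 ratio was 2.54 over the 10 members, Cdk6 at 0 included. It was -0.12 over the compared genes and 0.00 over all 31253 genes. The 3 members within 2-fold were Ccnd3, Ccne2 and Cdk6, and Cdk6 did not reach 1 FPKM in either library. E2f2 and Ccnd2 reached 1 FPKM through the mNRPC library alone.

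**Figure D1:**
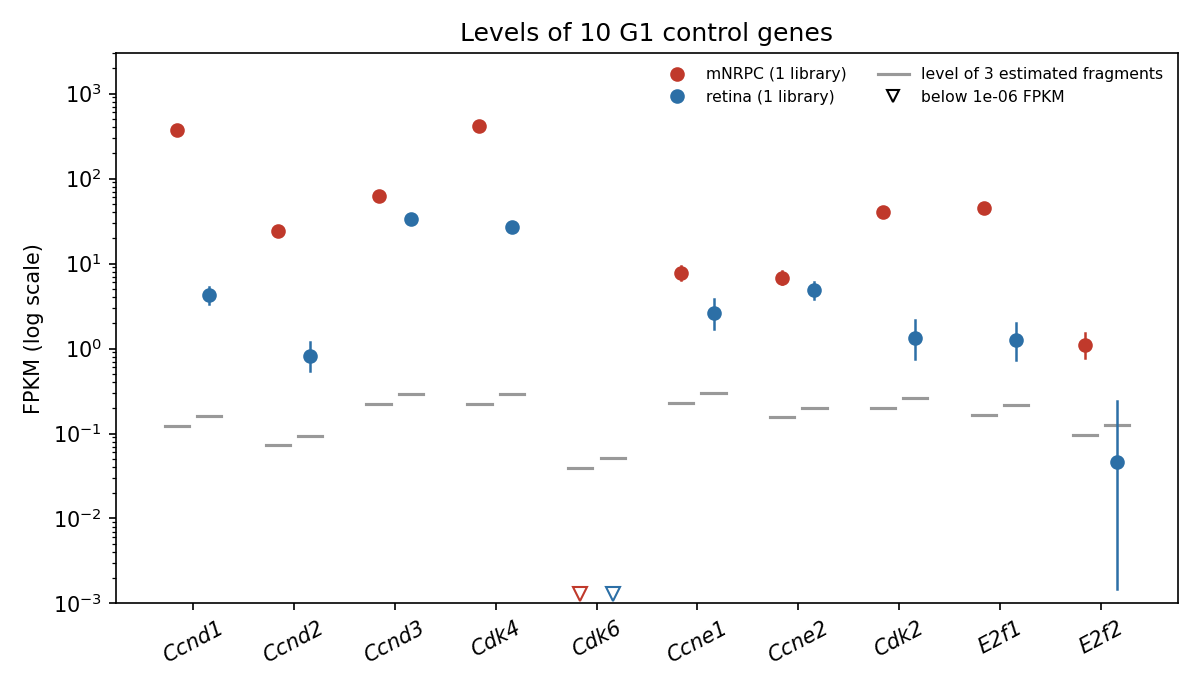
Level of each member in FPKM (log axis) in the 1 mNRPC library and the 1 retina library, with 95% exact Poisson intervals of the estimated fragments and, as grey lines, the level of 3 fragments. The mNRPC point lies above the retina point for each member but Cdk6, which is below 1e-06 FPKM in both.

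No library is replicated, and the intervals given here are 95% intervals of counting error at the estimated depth, 6.54e+06 fragments in mNRPCs and 5.0e+06 in retina. They leave out the spread between cultures and animals. In such bulk samples, fewer cells of a type and less RNA per cell cannot be told apart.

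The D-type cyclins were led by Ccnd1, the member with the largest log2 ratio. Ccnd1, which encodes cyclin D1, was at 371 FPKM in mNRPCs (364 to 379) and at 4.26 FPKM in retina (3.38 to 5.31), from 9084 and 79.8 estimated fragments. Its log2 ratio was 6.14 ± 0.26 (counting error), and the plain ratio was 87.1 (69.9 to 110.0). With the libraries scaled on general genes the log2 ratio was 5.39. Of the 13780 compared genes 99.6% had a lower log2 ratio, and it stood at rank 49. The gene stood among the most abundant of the culture, with 99.3% of all genes below it, and in retina 69.4% lay below. Of its 3740 exon bases 29.4% are shared with LTO1 on the opposite strand, which was at 7.09 FPKM in mNRPCs and 11.8 FPKM in retina. Whether the libraries kept strand is not given in the sources used here, so the part of such shared bases in a level was not tested.

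Ccnd2, the gene of cyclin D2, was at 24.1 FPKM in mNRPCs (22.7 to 25.7) and at 0.822 FPKM in retina (0.537 to 1.2). Its log2 ratio was 3.79 ± 0.26 and its plain ratio 29.3 (19.9 to 45.1), and the log2 ratio was 2.84 over curated rows and 3.08 with its highest row alone. It was thus lower than Ccnd1 in both libraries, but by different amounts, since Ccnd1 stood at 15.4 times Ccnd2 in mNRPCs and at 5.18 times in retina. The ratio of these values was 2.97 (1.90 to 4.65). Over curated rows they were 46.7 and 17.2 times, with a ratio of 2.71.

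Ccnd3, the gene of cyclin D3, departed from the others. It was at 61.6 FPKM in mNRPCs (57.5 to 65.9) and at 33.2 FPKM in retina (29.8 to 36.9), a log2 ratio of 0.87 ± 0.18 and a plain ratio of 1.86 (1.64 to 2.11). The intervals of the libraries did not overlap, but the difference was below 2-fold, and its log2 ratio was 0.07 when the libraries were scaled on general genes. Of its 2258 exon bases 15.9% are shared with Bysl on the opposite strand, at 6.14 FPKM in mNRPCs and 6.40 FPKM in retina.

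The make-up of the D-type total therefore differed. The 3 genes summed to 457.1 FPKM in mNRPCs and 38.3 FPKM in retina. Ccnd1 gave 81.2% of that sum in mNRPCs (80.5% to 82.0%) and 11.1% in retina (8.86% to 13.8%). Ccnd3 gave 13.5% in mNRPCs (12.7% to 14.3%) and 86.7% in retina (83.9% to 89.1%), so the leading D-type cyclin was Ccnd1 in the culture and Ccnd3 in the tissue. Ccnd2 held the smallest share in each, 5.28% in mNRPCs (4.96% to 5.61%) and 2.15% in retina (1.40% to 3.16%). The Ccnd1 to Ccnd3 ratio was 6.03 in mNRPCs (5.62 to 6.47) and 0.129 in retina (0.101 to 0.164), a 46.9-fold difference (36.4 to 60.5) that does not depend on how the libraries are scaled to each other. How rows were summed did move the shares. With curated transcript rows alone Ccnd1 held 92.4% in mNRPCs and 23.7% in retina, and Ccnd3 5.63% and 75%.

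**Figure D2:**
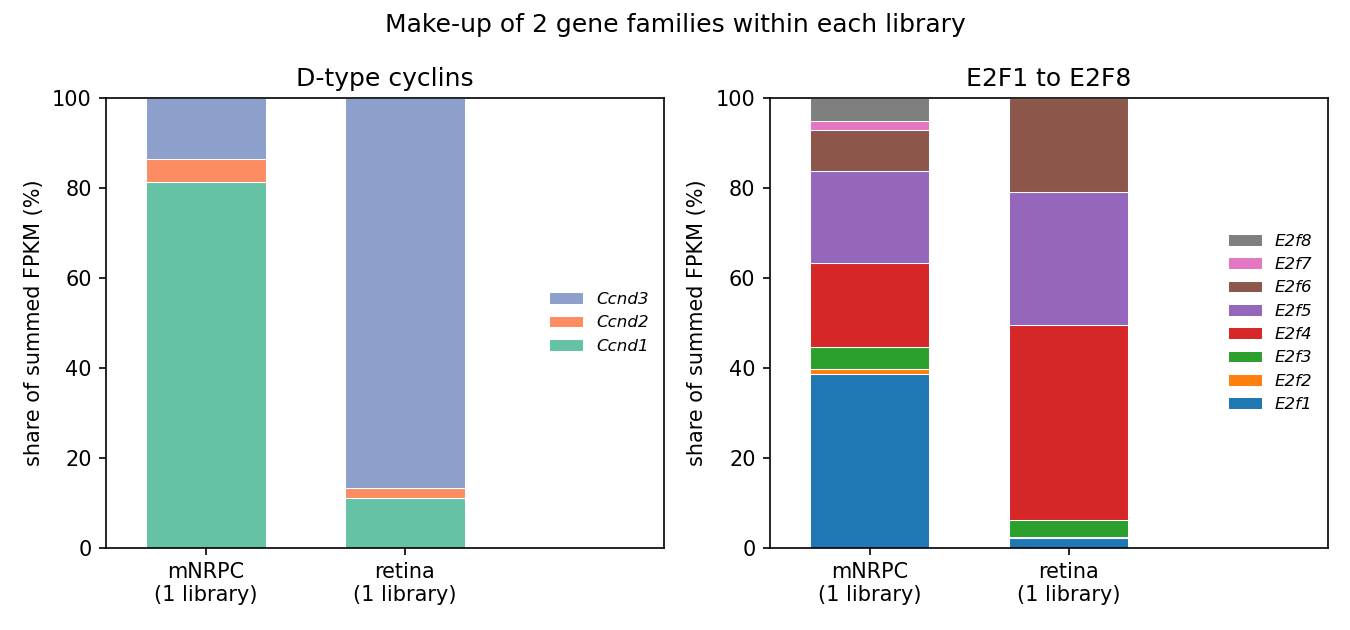
Share in percent of each gene in the summed FPKM of the D-type cyclins (left) and of E2f1 to E2f8 (right) in the 1 mNRPC and the 1 retina library. Ccnd1 fills 81.2% of the mNRPC bar and 11.1% of the retina bar on the left, and E2f1 fills 38.7% and 2.21% on the right.

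The kinase partners of the D-type cyclins were represented by Cdk4. Cdk4 was at 417 FPKM in mNRPCs (406 to 428), the highest level of any member in either library, and at 26.9 FPKM in retina (23.8 to 30.2). Its log2 ratio was 3.91 ± 0.17 and its plain ratio 15.5 (13.8 to 17.6). It was abundant in the tissue as well, where 90.9% of all genes lay below it. Of its 2053 exon bases 31.2% are shared with Tspan31 on the opposite strand, which was at 129.8 FPKM in mNRPCs and 51.7 FPKM in retina, the latter above Cdk4 itself.

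Cdk6, the other kinase of this step, had no measurable level, with deposited estimates of 2.55e-17 FPKM in mNRPCs and 9.90e-17 FPKM in retina that were read as 0. Its 1 curated row is 11525 bp long, and 3 fragments would have given 0.0398 FPKM in mNRPCs and 0.0520 FPKM in retina. Of 9384 single-row coding genes, 350 in mNRPCs and 340 in retina had such an estimate above 0 but under 1e-06 FPKM, and such a value does not show that a transcript is absent. Predicted transcript rows without a symbol made up 32337 of 73243, and whether any of them belongs to Cdk6 was not tested.

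Against its cyclins, Cdk4 stood differently in the libraries. Ccnd1 was at 0.890 of the Cdk4 level in mNRPCs and at 0.159 in retina, a 5.61-fold difference (4.36 to 7.21). Ccnd3 went the other way, with 0.148 of the Cdk4 level in mNRPCs and 1.24 in retina, which is 8.37-fold higher in the tissue (7.03 to 9.97). Over curated rows the latter values were 0.0542 in mNRPCs and 0.503 in retina, so that Cdk4 stood above Ccnd3 in both libraries.

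The cyclin E genes had smaller log2 ratios than Ccnd1 and Ccnd2. Ccne1 was at 7.77 FPKM in mNRPCs (6.33 to 9.44) and at 2.59 FPKM in retina (1.69 to 3.8), a log2 ratio of 1.29 ± 0.47 and a plain ratio of 3.0 (1.93 to 4.81). Its intervals lay apart, but its log2 ratio passed below 1 when the libraries were rescaled to a common sum (0.96) or scaled on a list of 9 general housekeeping genes (0.62).

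Ccne2 was at 6.82 FPKM in mNRPCs (5.71 to 8.09) and at 4.87 FPKM in retina (3.82 to 6.13), with overlapping intervals. Its log2 ratio was 0.41 ± 0.35 and its plain ratio 1.40 (1.04 to 1.89), and the log2 ratio was -0.03 with libraries rescaled to a common sum and -0.29 on the list of general genes. It shares 19.0% of its 3200 exon bases with Ints8 on the opposite strand, at 18.9 FPKM in mNRPCs and 15.4 FPKM in retina. No direction can be given for Ccne2.

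Together Ccne1 and Ccne2 summed to 14.6 FPKM in mNRPCs and 7.46 FPKM in retina. Ccne1 held 53.2% of the sum in mNRPCs (46.5% to 59.8%) and 34.7% in retina (24.6% to 45.7%), but their order depended on the transcript rows. The Ccne1 to Ccne2 ratio was 1.14 in mNRPCs and 0.532 in retina over all rows, a 2.14-fold difference (1.28 to 3.59). Over curated rows it was 2.07 in mNRPCs and 3.56 in retina, so both the order in retina and the direction of the difference turned, and neither can be given.

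Cdk2, the kinase that cyclin E activates, differed more than either cyclin. It was at 40.0 FPKM in mNRPCs (36.8 to 43.3) and at 1.33 FPKM in retina (0.755 to 2.19), with a log2 ratio of 4.13 ± 0.43 and a plain ratio of 29.9 (18.0 to 53.8). The retina value rests on 15.5 estimated fragments. Over curated rows alone Cdk2 was at 31.0 FPKM in mNRPCs and 0.246 FPKM in retina, a log2 ratio of 4.68 after adding 1 FPKM. That retina value lies below the level of 3 fragments (0.264 FPKM), so no plain ratio to it is given. In mNRPCs Ccne1 was at 0.194 of the Cdk2 level, and in retina at 1.94, a 9.98-fold difference (5.14 to 19.4). Cdk4 stood above Cdk2 in both libraries, 10.4 times in mNRPCs and 20.1 times in retina.

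E2f1 and E2f2 are activating E2Fs, and E2f1 is itself a target of the factors it belongs to. E2f1 was at 44.7 FPKM in mNRPCs (41.6 to 47.9) and at 1.25 FPKM in retina (0.730 to 1.99), from 804 and 17.2 estimated fragments. Its log2 ratio was 4.34 ± 0.39, which overlaps that of Cdk2 within counting error, and its plain ratio 35.8 (22.2 to 61.8). E2f2 was low in both, at 1.10 FPKM in mNRPCs (0.764 to 1.54) and 0.0458 FPKM in retina (0.00149 to 0.241).

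The retina value of E2f2 rests on 1.09 estimated fragments, below the level of 3 fragments at 0.127 FPKM. Its plain ratio was 24.1 with an interval of 4.04 to 979. Its log2 ratio of 1.01 ± 0.28 lay at the 2-fold limit and slipped under it with upper quartile scaling (0.99), trimmed mean scaling (0.97) and the list of general genes (0.79). Other settings raised it, to 1.33 with a common sum and to 3.04 with 0.1 FPKM added in place of 1 FPKM. With nothing added and a floor of 3 fragments it was 3.12. Just under the limit stood Ccnd3 at 0.87.

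Within E2f1 to E2f8 the order was not the same in both libraries. The 8 genes summed to 115.5 FPKM in mNRPCs and 56.3 FPKM in retina. E2f1 led in mNRPCs with 38.7% (36.5% to 40.8%), and E2f4, an E2F known as a partner of the pocket proteins in resting cells, led in retina with 43.3% (39.3% to 47.4%). E2f1 held 2.21% in retina (1.29% to 3.53%), and E2f4 18.9% in mNRPCs (17% to 20.9%). The E2f1 to E2f4 ratio was 2.05 in mNRPCs and 0.0511 in retina, a 40.1-fold difference (24.1 to 66.6).

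Ordered by level over all transcript rows, the members formed a graded series in mNRPCs, from Cdk4 over Ccnd1, Ccnd3, E2f1, Cdk2, Ccnd2, Ccne1 and Ccne2 to E2f2. E2f1 and Cdk2 had overlapping intervals, as did Ccne1 and Ccne2, and the other neighbours lay apart. In retina Ccnd3 and Cdk4 overlapped at the top and stood apart from all other members. From Ccne2 over Ccnd1, Ccne1, Cdk2 and E2f1 to Ccnd2 each retina interval overlapped that of its neighbour, and E2f2 lay below them. The order depended on the rows. Over curated rows Ccnd3 (22.6 FPKM) lay below E2f1 and Cdk2 in mNRPCs, and Ccnd2 (7.96 FPKM) near Ccne1. In retina Cdk4 then led alone, above Ccnd3 at 13.5 FPKM, and Ccne2 at 0.729 FPKM lay below Ccnd1, Ccne1 and E2f1. Over all rows the levels of the members with over 3 fragments spanned 1.10 to 417 FPKM in the culture and 0.822 to 33.2 FPKM in the tissue.

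**Figure D3:**
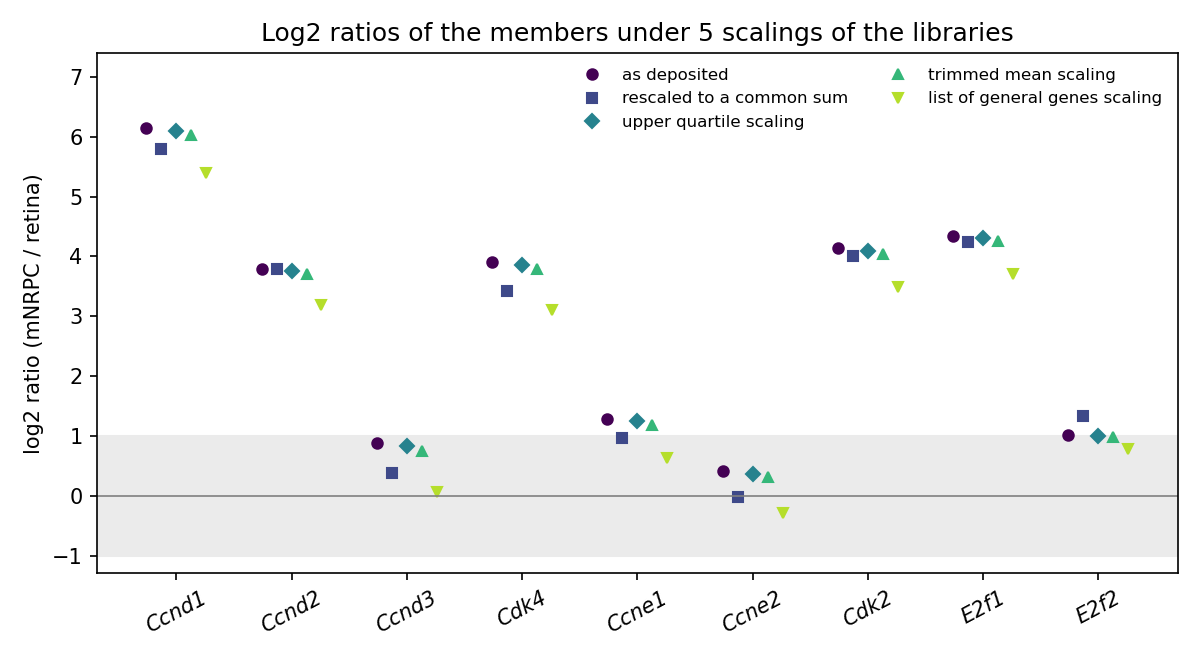
Log2 ratio of mNRPC over retina (+1 FPKM) of the 9 members detected in a library, with the values as deposited and under 4 other scalings, the band marking less than 2-fold. Ccnd1, Ccnd2, Cdk4, Cdk2 and E2f1 lie above the band in all 5, whereas Ccne2 crosses 0.

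How the libraries are scaled shifts every gene. The median log2 ratio of the compared genes was -0.12 as deposited, -0.17 with upper quartile scaling, -0.23 with trimmed mean scaling, -0.61 with a common sum and -0.84 on a list of 9 general genes. Relative to the deposited median, the log2 ratio was 6.26 for Ccnd1, 4.46 for E2f1, 4.25 for Cdk2, 4.03 for Cdk4, 3.91 for Ccnd2, 1.41 for Ccne1, 1.13 for E2f2, 0.99 for Ccnd3 and 0.53 for Ccne2. Thus, with 1 FPKM added, 5 members lay at 3.91 or above and 4 at 1.41 or below. The place of E2f2 depended on the amount added, since its deposited log2 ratio was 3.04 with 0.1 FPKM. Its plain ratio of 24.1, from 1.09 retina fragments, lay above the 15.5 of Cdk4. The log2 ratios of the upper 5 were lowest on the list of general genes, at 5.39 for Ccnd1, 3.70 for E2f1, 3.48 for Cdk2, 3.19 for Ccnd2 and 3.10 for Cdk4. Over curated rows Ccnd2 was lower still, at 2.84.

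The transcript rows behind a gene were divided differently in the libraries for some members. Ccnd1, Cdk4, Cdk6, Ccne1 and E2f2 had 1 curated row each. Of Cdk2, a curated row of 2240 bp held 69.1% in mNRPCs and 12.3% in retina, whereas 1 predicted row held 15.9% and 65.0%. Both rows were higher in mNRPCs, at 27.6 against 0.164 FPKM for the curated row and at 6.34 against 0.868 FPKM for the predicted row.

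Ccne2 showed a like division, but with rows on opposite sides. Its curated row of 2908 bp was at 3.68 FPKM in mNRPCs and 0.499 FPKM in retina, and a predicted row was at 0.711 FPKM in mNRPCs and 2.35 FPKM in retina. Over curated rows alone the log2 ratio of Ccne2 was 1.46. Of E2f1, the row of 2755 bp held 90.6% in mNRPCs and 100% in retina, and the row of 2732 bp had 4.21 FPKM in mNRPCs and less than 1e-06 FPKM in retina. Ccnd2 was divided much alike, with 33.0% and 30.1% on its curated row. Fragments that fit several rows are divided by estimation, so single rows are less certain than gene sums.

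**Figure D4:**
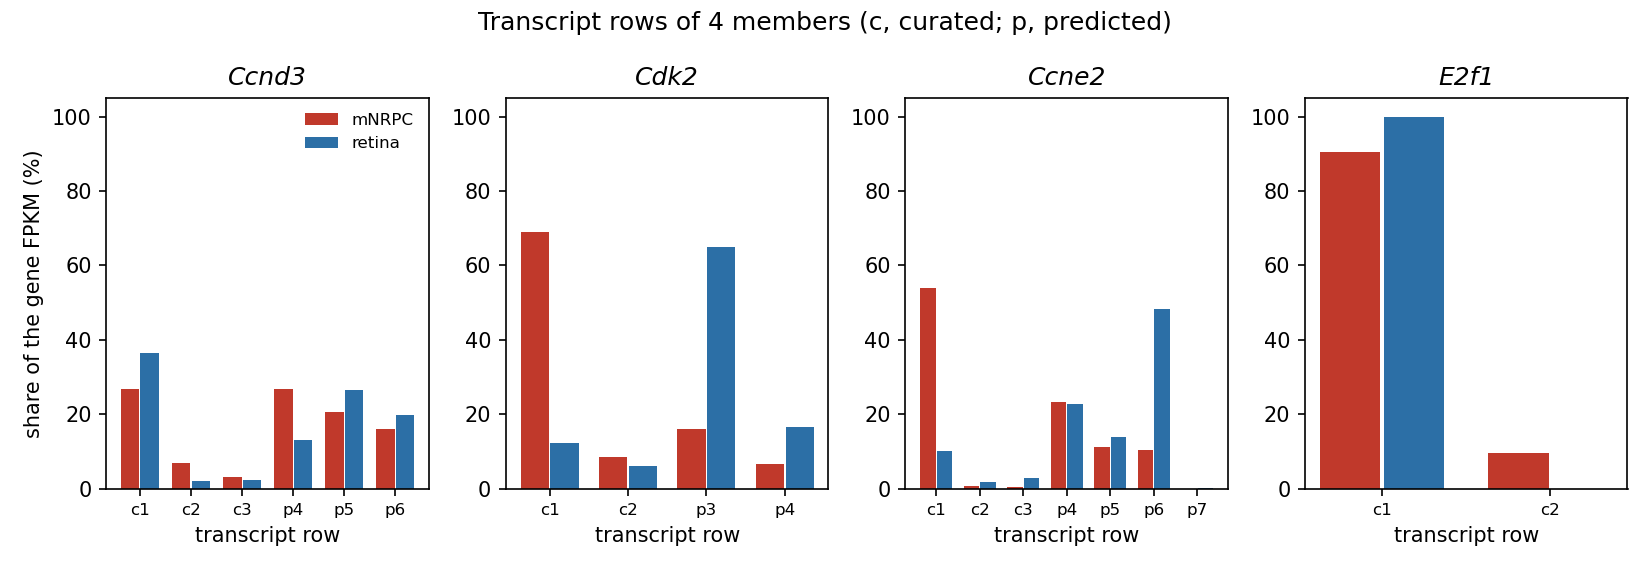
Share in percent of each transcript row in the FPKM of its gene for Ccnd3, Cdk2, Ccne2 and E2f1, in the 1 mNRPC and the 1 retina library. The first curated row holds 69.1% of Cdk2 in mNRPCs and 12.3% in retina, and 54.0% and 10.2% of Ccne2.

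The rest of the pathway was read from 9 lists that together held 71 genes, all of them with at least 1 FPKM in a library. Of these 33 were at least 2-fold higher in mNRPCs and 8 lower, and after rescaling to a common sum the counts were 31 and 14. The shares of all compared genes were 24.5% and 30.0% as deposited, and 19.2% and 40.8% with the common sum.

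The pocket proteins and E2F partners hold E2Fs in check or help them bind DNA. Of these 5 genes 1 was higher and 2 were lower, with a median log2 ratio of 0.74 that turned to -0.07 on the general genes. Rb1, the retinoblastoma gene, was at 6.37 FPKM in mNRPCs and 16.5 FPKM in retina, a plain ratio of 0.386 (0.323 to 0.460). Rbl1, which encodes the related p107 and is itself an E2F target, was at 15.2 FPKM in mNRPCs and 3.54 FPKM in retina, a plain ratio of 4.29 (3.41 to 5.47). These values are over all rows. The Rbl1 to Rb1 ratio was 2.38 in mNRPCs and 0.2145 in retina, an 11.1-fold difference (8.34 to 14.8). Over curated rows it was 2.36 in mNRPCs and 0.0224 in retina, a 105.3-fold difference. The retina ratio, and with it the size of the difference, thus depended on the rows counted. E2f1 was at 7.01 times the Rb1 level in mNRPCs and at 0.0757 of it in retina, a 92.6-fold difference (55.8 to 153.9).

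Of the 6 other E2Fs 3 were higher and 0 lower, with a median of 0.76. E2f8, a repressor that E2F1 itself induces, had 6.03 FPKM in mNRPCs. In retina it is listed at 0, where 3 fragments would have given 0.162 FPKM. E2f3, the third activating E2F, was at 5.65 FPKM in mNRPCs and 2.22 FPKM in retina, a plain ratio of 2.54 (1.85 to 3.55). E2f4 was at 21.8 and 24.4 FPKM, with a log2 ratio of -0.16 ± 0.24. The trimmed mean, common sum and general gene scalings left 2 of the 6 higher.

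Among the 7 CDK inhibitors 4 were higher and 1 was lower, with a median of 1.65. Cdkn2a was at 303.1 FPKM in mNRPCs and 0.333 FPKM in retina, where it rests on 1.49 estimated fragments. Its measurable level lay on the row of 895 bp. The gene encodes the inhibitor p16 and, in another reading frame, ARF, and which of these that row encodes was not determined. Cdkn1c, which encodes p57, was at 2.86 and 11.3 FPKM, a log2 ratio of -1.67.

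Cdkn1b and Cdkn2c stood between these ends. Cdkn1b, which encodes p27, was nearly level, at 48.1 FPKM in mNRPCs and 53.8 FPKM in retina, a plain ratio of 0.895 (0.804 to 0.995). Against Cdk2, which p27 inhibits, Cdkn1b was at 1.2 in mNRPCs and 40.3 in retina, 33.5-fold higher in the tissue (20.0 to 56.0). The retina level of Cdk2 rests on 15.5 estimated fragments. Over curated rows the fold lay above this interval. Its size is not given, because the curated retina level of Cdk2 lies below that of 3 fragments. Cdkn2c, which encodes the CDK4 and CDK6 inhibitor p18, was at 106.0 FPKM in mNRPCs and 25.3 FPKM in retina. It was at 0.254 of the Cdk4 level in mNRPCs and at 0.941 in retina, 3.71-fold higher in the tissue (3.04 to 4.52).

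The 3 genes of the CDK-activating kinase, which phosphorylates CDKs in all phases, were within 2-fold, but on the general genes 1 of them was lower. Mnat1 was the highest in log2 ratio (26.3 and 15.1 FPKM, 0.76) and Ccnh the lowest (22.7 and 28.6 FPKM, -0.32). Their median of 0.20 turned to -0.28 with a common sum and to -0.54 on the general genes. Of the 8 genes for turnover and activation of G1 cyclins and kinases 4 were higher and 1 was lower, with a median of 1.13, and on the general genes 3 were higher and 3 lower. Cks1b, a small CDK-binding protein needed to degrade p27, was at 264.8 FPKM in mNRPCs and 2.36 FPKM in retina, a plain ratio of 112.4 (61.0 to 235.0). Fbxw7, which marks cyclin E for destruction, was at 7.68 FPKM in mNRPCs and 22.1 FPKM in retina, a plain ratio of 0.348 (0.291 to 0.414).

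The G1/S targets of E2F are genes of DNA replication and nucleotide synthesis that follow E2F release. Of the 19 genes 16 were higher and 0 lower, with a median of 2.33, and 15 were higher with a common sum. Cdk1, a later kinase, had the highest log2 ratio of the list, 6.21, at 84.4 FPKM in mNRPCs and 0.15 FPKM in retina. Tyms, which makes thymidylate, had the lowest log2 ratio, -0.11 ± 0.25, at 11.5 and 12.4 FPKM.

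All 4 later cyclins were higher, with a median of 4.13. Ccnb2, a mitotic cyclin, was at 67.9 FPKM in mNRPCs and 0.405 FPKM in retina. Ccna2, the cyclin of S phase, was at 123.1 and 27.7 FPKM, and the retina level rests on 411 estimated fragments, beside 3.28 for Cdk1. Of its 2965 exon bases 17.2% are shared with Exosc9 on the opposite strand, at 44.5 FPKM in mNRPCs and 21.0 FPKM in retina, and the part of these in the retina level of Ccna2 was not tested.

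Of the 6 MuvB/DREAM genes, whose complex represses cycle genes in resting cells and activates them in dividing cells, 2 were higher and 1 was lower, with a median of 0.79. On the general genes 1 was higher and 1 lower, with a median of 0.07. Foxm1, a factor for mitotic genes, was at 20.9 FPKM in mNRPCs and 0.189 FPKM in retina. Lin52, a core subunit, was at 6.00 and 21.2 FPKM, a log2 ratio of -1.66.

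Cyclins, kinases and kinase activators outside the cycle served as the nearest relatives. Of these 14 transcriptional and neuronal genes 0 were higher and 3 were lower, with a median log2 ratio of -0.59. Of all compared genes 24.5% were higher and 30.0% lower, and of the 10 members 7 were higher and 0 lower. The lower genes were Cdk19 (-1.83) and 2 neuronal activators of Cdk5, Cdk5r1 (-4.01) and Cdk5r2 (-6.26). Ccnl2, a splicing cyclin, had the highest log2 ratio, at 40.1 FPKM in mNRPCs and 31.6 FPKM in retina. Cdk5r2, a neuronal activator of Cdk5, had the lowest log2 ratio, at 0.0548 FPKM in mNRPCs, from 1.0 estimated fragments, and 79.9 FPKM in retina. With a common sum 8 of the 14 were lower and 0 higher, where 40.8% of all compared genes were lower. On the general genes 9 were lower and 0 higher, beside 45.7% lower and 15.0% higher of all compared genes, whose medians shift as given above.

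**Figure D5:**
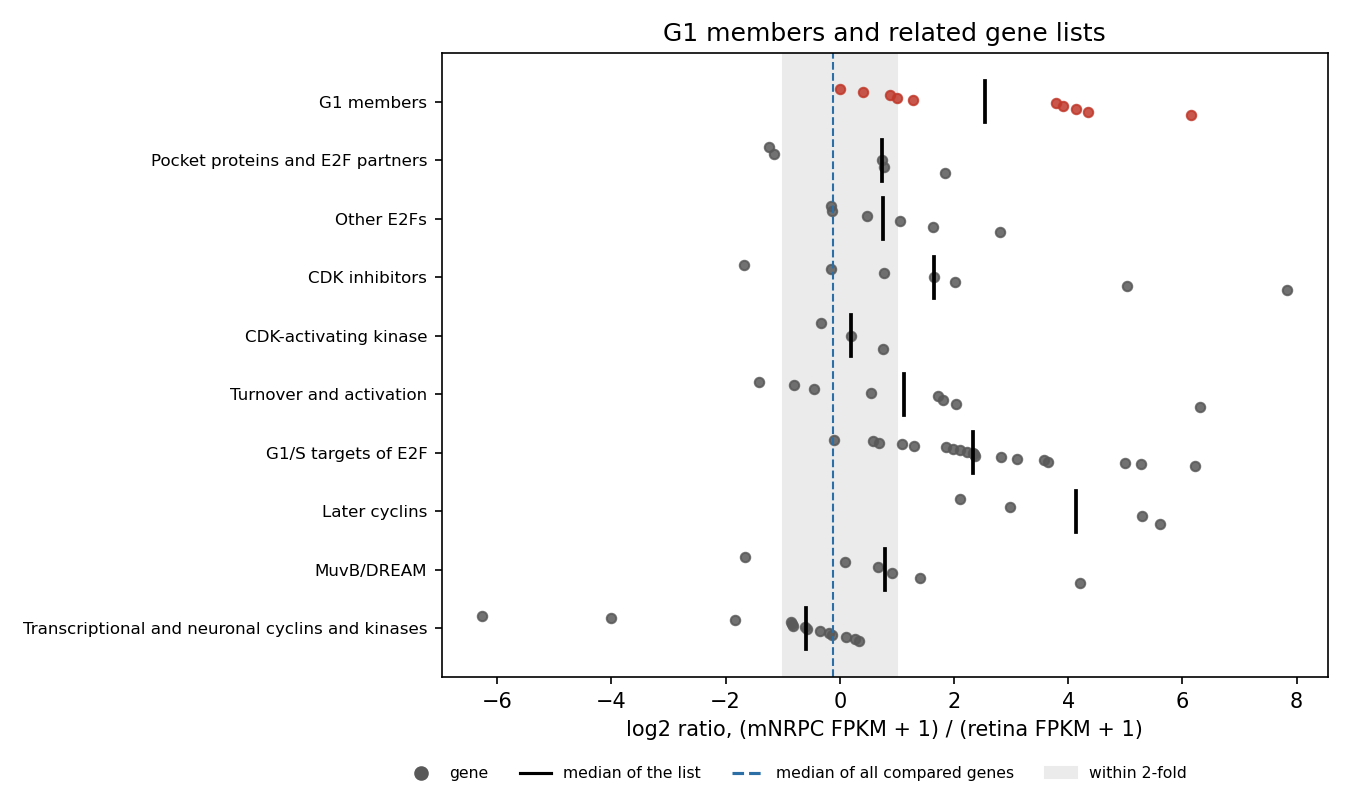
Log2 ratio of mNRPC over retina (+1 FPKM) of each member (red) and of each gene of the 9 lists (grey), with the median of each list (black) and that of all compared genes (dashed, -0.12). The members, Cdk6 at 0 included, have a median of 2.54, the G1/S targets of E2F 2.33 and the cyclins, kinases and activators outside the cycle -0.59.

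The genes nearest to Ccnd1 by Euclidean distance over log2(FPKM + 1) in the 2 libraries were Olfml3 (distance 0.096), Vcam1 (0.200) and Pcolce (0.239). Olfml3 was at 347.7 FPKM in mNRPCs and 4.31 FPKM in retina. With 2 libraries the measure says only that their levels lay near those of Ccnd1.

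Marker levels differed in the same comparison. The proliferation markers Mki67, Top2a and Cdk1 summed to 199.7 FPKM in mNRPCs and 0.342 FPKM in retina, where none of the 3 reached 1 FPKM. The 9 rod markers summed to 12 FPKM in mNRPCs, with 4 of 9 at 1 FPKM or more and none at 0, and to 29820 FPKM in retina, with 9 of 9. The 4 mesenchymal markers summed to 457.6 FPKM in mNRPCs, of which Col3a1 gave 449.8, and to 4.68 FPKM in retina. Of the 7 progenitor markers 5 reached 1 FPKM in mNRPCs and Rax was listed at 0, with a sum of 405.5 FPKM against 328.6 FPKM in retina, where 6 of 7 reached it. Endothelial markers summed to 0.0459 FPKM in mNRPCs, with 2 of 4 at 0, and to 37.2 FPKM in retina, and microglial markers to 0.00796 FPKM, with 3 of 4 at 0, and to 4.84 FPKM. The part of these cell types in the levels of the members was not tested.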

How the data were processed

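RNA was sequenced from 1 mNRPC library and 1 retina library, grouped by the labels. The authors deposited FPKM values per RefSeq transcript. The submitters' processing notes name TopHat2 2.0.10 and GRCm38.p3, whereas the study's methods describe Bowtie 2 and eXpress for another set of mNRPC samples. Which of these made the table, the counting program and the annotation release are not given in the sources used here.

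Accessions were matched without version to RefSeq gene names of GRCm38.p6 and, failing that, of GENCODE M21. This named 74283 of 106754 rows (69.6%), which held 93.2% of the mNRPC and 89.9% of the retina FPKM. Rows of a symbol were summed to 31253 genes, and values under 1e-06 FPKM were read as 0. Genes with at least 1 FPKM in a library were compared by log2((mNRPC + 1)/(retina + 1)), and 2-fold was the limit for higher and lower. With 1 library per group no test was possible.

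Counts were not used here. Depth was estimated from the lowest common value of FPKM times length in single-row genes of at least 1500 bp (4023 rows in mNRPCs and 4530 in retina). It came to 6.54e+06 and 5.0e+06 fragments. Fragments of a gene follow from FPKM, length and depth. Predicted rows had no length and were given the median of the gene's curated rows. From these fragments came 95% exact Poisson intervals of levels, Clopper-Pearson intervals of shares and plain ratios, and log-scale intervals of ratios within a library, all for counting error only. The depth estimate was recovered from Poisson counts simulated at that same depth on the same rows. The simulation took the lengths as right and split no fragments between rows. It therefore cannot show that the estimate is right for these libraries.

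The members and lists were chosen with earlier results of these data known. All 10 members are named, and of each list the genes with the highest and lowest log2 ratio, with Rb1, E2f3, Cdkn1b and Cdkn2c in any case. Alternatives were a pseudocount of 0.1 FPKM, none with a floor of 3 fragments, 4 scalings (common sum, upper quartile, trimmed mean and the median log2 ratio of 9 general housekeeping genes), curated rows, the highest row, versioned accessions, a 4-fold limit and other minimum levels. Exon overlaps came from GENCODE M21. Python 3.11.15, pandas 2.3.3, numpy 2.4.6 and scipy 1.17.1 were used.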

Additional observations from a re-analysis of the deposited data

How the results depend on the processing

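None of the 10 members was at least 2-fold lower under any alternative run, and 5 to 8 were at least 2-fold higher. The lowest count, 5, came with the list of general genes, where 15.0% of all compared genes were higher. The highest, 8, came with curated rows alone. At a 4-fold limit 5 were higher and 0 lower. Some alternatives held fewer members, with 7 of 8 higher for versioned accessions, 6 of 8 for a minimum of 5 FPKM and 7 of 9 for a floor of 3 fragments. Shares of all genes are not given here for the 4-fold limit, curated rows and pseudocounts. Ccnd1, Ccnd2, Cdk2, Cdk4 and E2f1 were at least 2-fold higher in each of their 9 alternatives, Ccne1 in 7 of 9, E2f2 in 5 of 8, Ccne2 in 2 of 9 and Ccnd3 in none. The median log2 ratio of the members, 2.54 as reported, was 3.50 with a pseudocount of 0.1 FPKM, 1.94 on the list of general genes, 2.15 with curated rows and 2.18 with the highest row of each gene. It was 3.76 with versioned accessions, which left out Cdk6 and E2f2, and 3.96 over 9 members with no pseudocount and a floor of 3 fragments. The share of Ccnd1 in the D-type total was 92.4%, 93.3% and 87.4% in mNRPCs with curated rows, the highest row and versioned accessions, and 23.7%, 25.5% and 15.7% in retina. Of the 71 listed genes 14 were at least 2-fold lower with a common sum. With a common sum, a pseudocount of 0.1 FPKM or curated rows, 31 to 35 were higher. The general gene scaling was counted by list only. On it 15.0% of all compared genes were higher and 45.7% lower. Of the 19 G1/S targets of E2F 15 were higher and 0 lower. Of the 8 turnover and activation genes 3 were higher and 3 lower, and of the 14 genes outside the cycle 0 were higher and 9 lower. Ratios of 2 genes within a library were recomputed over curated rows, an alternative chosen after seeing the data. The mNRPC over retina value of Ccne1 to Ccne2 went from 2.14 to 0.583. Those of Cdk4, Ccne1 and Cdkn1b to Cdk2 and of Rbl1 to Rb1 left their counting intervals but kept their direction. The cause of these moves was not tested. For the ratios to Cdk2 only a direction is given, because its curated retina level lies below that of 3 fragments. No paired analysis was possible because only 1 library stood for each group. Depth limits the retina values of E2f2, which rests on 1.09 estimated fragments, and of Cdk2, E2f1, Ccnd2 and Ccne1, which rest on 15.5 to 26.1. No interval covers the spread between cultures or animals.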

Other observations

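The INK4 genes Cdkn2b, Cdkn2c and Cdkn2d, whose proteins bind CDK4 and CDK6, were summed after their values had been seen. They came to 199.1 FPKM in mNRPCs and 48.4 FPKM in retina, beside 457.1 and 38.3 FPKM for the D-type cyclins. With Cdkn2a, of which it was not determined which product the row encodes, the sums were 502.2 and 48.8 FPKM. The mNRPC sum thus lay below that of the D-type cyclins without Cdkn2a and above it with Cdkn2a. Cdkn2b, which encodes p15, was at 54.1 FPKM in mNRPCs and 0.689 FPKM in retina, and Cdkn2d, which encodes p19, at 39.0 and 22.5 FPKM. The INK4 sum, with or without Cdkn2a, and the D-type cyclin sum were both higher in the culture.

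The other E2Fs also take part in the E2f1 to E2f8 total. E2f5 held 20.4% in mNRPCs and 29.6% in retina, and E2f6 9.16% and 20.8%. E2f7 held 1.82% in mNRPCs and is listed at 0 in retina, where 3 fragments would have given 0.109 FPKM. E2f3 held 4.89% in mNRPCs (4.2% to 5.67%) and 3.94% in retina (2.93% to 5.19%), with overlapping intervals. These genes were singled out after their values had been seen.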
